A study of Mus musculus with 2 samples.

Results

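The genes described here are 7 detoxifying hydrolases and oxidoreductases of the mouse testis: Ephx1, Ephx2, Ces1d, Aldh3a1, Aldh2, Nqo1 and Cbr1. They were taken by name from the 43026 gene columns of 2 count tables by a rule that uses no measured value, although the set was drawn up with earlier results of these data known, and all 7 have a column in both tables. They were followed in Leydig-like cells and in the other cell classes of 2 single-cell libraries. The young library is of testis at an age of 2 months and the aged library of testis at 24 months. The tissue is labelled testicular tissue and the cells stroma cells. In the extraction protocol the tunica was removed and the minced testis was digested with accutase before capture on the BD Rhapsody microwell system, in which barcoded beads bind poly-adenylated RNA. Strain, genotype and the number of mice behind each library are not given in the sources used here. Each age has 1 library, so differences between them are given as sizes without a test or replicate check. Intervals are exact 95% intervals that cover counting error only.

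Leydig cells lie between the seminiferous tubules and make testosterone through mitochondrial and microsomal cytochrome P450 enzymes, whose turnover also releases reactive oxygen species that can damage lipids. The enzymes of this set act on the reactive products of lipids, drugs and pollutants. Epoxide hydrolases add water to epoxides, carboxylesterases split esters, aldehyde dehydrogenases oxidise aldehydes to acids, and quinone and carbonyl reductases use NADPH or NADH to reduce quinones and ketones. In liver several of these genes are known targets of the transcription factor Nrf2 (gene Nfe2l2), which responds to electrophiles, and of the aryl hydrocarbon receptor (Ahr).

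Of 2732 young cells left for analysis 1061 (38.8%) were Leydig-like, and of 5691 aged cells 566 (9.95%), with 7720553 and 2735243 counts in all and a median of 6936 and 4775 counts per cell. The 12 Leydig markers were all detected and summed to 27480 CPM (young) and 20029 CPM (aged) there. CPM stands for a gene's counts per 1000000 counts of all genes, both added up across the cells of a class within a library. Macrophage markers summed to 39.8 and 28.2 CPM in the same cells, and stromal fibroblast markers to 283 and 136 CPM. The highest of the other marker lists there was that of elongating spermatids, with 1061 CPM (young) and 407 CPM (aged). Although the label reads stroma cells, 660 young and 2278 aged cells were spermatocyte-like. The tables share 35 cell indices. No young cell held fewer than 3215 counts, while the lowest aged cell held 186.

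The genes lie on 6 chromosomes, in positions given on GRCm38 from the GENCODE M21 annotation. Ephx1 (ENSMUSG00000038776.13, minus strand, 9 exons in its longest transcript) spans chr1:180976210-181020904. Ephx2 (ENSMUSG00000022040.8, minus strand, 19 exons) spans chr14:66084374-66124500. Ces1d (ENSMUSG00000056973.6, minus strand, 14 exons) spans chr8:93166068-93197838, inside a run of Ces1 genes. Aldh3a1 (ENSMUSG00000019102.10, plus strand, 11 exons) spans chr11:61207537-61218421, next to Aldh3a2. Aldh2 (ENSMUSG00000029455.14, minus strand, 13 exons) spans chr5:121566027-121593824. Nqo1 (ENSMUSG00000003849.8, minus strand, 6 exons) spans chr8:107388225-107403206. Cbr1 (ENSMUSG00000051483.9, plus strand, 5 exons) spans chr16:93605853-93610505, near its paralog Cbr3.

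The transcripts of these genes share little sequence with other genes. Of the 31-base words of the longest transcript, 9.65% in Cbr1, 7.5% in Ces1d and 3.57% in Ephx1 also occur in transcripts of other genes, chiefly the pseudogene Gm5678, Ces1b and the pseudogene Gm36961, which overlaps Ephx1 on the same strand. The other 4 genes share 0 such words. Gm5678 itself had 1 count in the Leydig-like cells of each library. Aldh2 and Ces1d overlap the gene models Gm42879 (opposite strand) and Gm45909 (same strand). These overlaps are of whole gene spans, and whether exons overlap was not tested. Whether the counting used strand is not given in the sources used here. How far reads of the overlapping genes can be told apart is therefore not known.

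The RefSeq promoter table (GRCm38.p6) held a start for 3 of the 7 genes, Ephx1, Nqo1 and Cbr1. The 250 bases before the start of Ephx1 and Cbr1 are shown because these genes part ways in germ cells, where Cbr1 had a far larger share of its Leydig-like level than Ephx1, as given below. Both starts lie inside the GENCODE spans above, which begin further upstream. The Ephx1 stretch is chr1:181017570-181017819 on the minus strand and the Cbr1 stretch chr16:93607587-93607836 on the plus strand, each written 5′ to 3′ with CG dinucleotides in capitals.
Ephx1: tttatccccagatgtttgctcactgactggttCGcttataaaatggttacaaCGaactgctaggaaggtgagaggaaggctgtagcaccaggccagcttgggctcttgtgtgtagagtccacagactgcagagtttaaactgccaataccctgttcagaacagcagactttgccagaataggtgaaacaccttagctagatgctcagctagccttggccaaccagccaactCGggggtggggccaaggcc
Cbr1: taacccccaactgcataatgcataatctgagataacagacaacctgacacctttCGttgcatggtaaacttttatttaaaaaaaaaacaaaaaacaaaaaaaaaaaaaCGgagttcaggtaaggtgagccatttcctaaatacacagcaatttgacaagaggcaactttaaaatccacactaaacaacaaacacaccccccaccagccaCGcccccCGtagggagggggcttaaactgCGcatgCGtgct
Ephx1 has 3 CG dinucleotides in this window, Nqo1 has 5 and Cbr1 has 6, against a median of 6 (quartiles 2 to 16) over the 32851 stretches of the same length in the table. Both strands were searched for 4 motifs, in which N stands for any base. Some sequences that match TGACNNNGC also hold AAGGTCA or GCGTG on the other strand, so the shares of all windows are not fully separate. TGACNNNGC, the core of the antioxidant response element bound by Nrf2, and AAGGTCA, bound by NR5A1, are in none of the 3 windows and in 10.2% and 4.08% of all windows. GCGTG, the core bound by the aryl hydrocarbon receptor, starts 43 and 7 bases before the start of Cbr1 and is absent from the other 2 windows; 28.2% of all windows hold it. TATAAA starts 214 bases before the start of Ephx1 and 29 bases before that of Nqo1, and 12.4% of all windows hold it. These are matches of letters only.

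Ephx1 encodes microsomal epoxide hydrolase, which opens epoxides of drugs and polycyclic hydrocarbons. Its level was 3841 CPM (interval 3798 to 3885, 29656 counts) in the young and 2522 CPM (2462 to 2582, 6897 counts) in the aged Leydig-like cells. The aged over young ratio was 0.656 (0.639 to 0.674), that is 1.52-fold lower in the aged library. Ces1d, a carboxylesterase that also hydrolyses stored triglyceride, stood at 1453 CPM (1426 to 1479.9, 11216 counts) in the young cells and at 996 CPM (959 to 1034, 2725 counts) in the aged cells. Its ratio was 0.686 (0.657 to 0.715), or 1.46-fold lower. Ephx2, the soluble epoxide hydrolase that degrades fatty acid epoxides, had the lowest level per length of the set, as given below, with 46.0 CPM (41.3 to 51.0) and 39.1 CPM (32.1 to 47.3). Its ratio of 0.851 (0.679 to 1.06) does not exclude equality at this depth.

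The aldehyde dehydrogenases of the set went apart between the libraries. Aldh3a1, a cytosolic enzyme for aromatic and lipid-derived aldehydes that is best known as an abundant protein of the cornea, had 236 CPM (225 to 247, 1822 counts) in the young and 525 CPM (499 to 553, 1437 counts) in the aged cells. It was 2.23-fold higher in the aged library (2.08 to 2.39). Aldh2, the mitochondrial enzyme that clears acetaldehyde and the lipid peroxidation product 4-hydroxynonenal, had 3780 CPM (3737 to 3824) and 3436 CPM (3367 to 3506). Its ratio was 0.909 (0.888 to 0.930), the smallest difference of the set whose interval excludes 1.

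The reductases differed by less than counting error allows to see. Nqo1, which reduces quinones to hydroquinones in a single step, had 95.6 CPM (88.8 to 103) in the young and 92.1 CPM (81.1 to 104) in the aged Leydig-like cells, a ratio of 0.964 (0.832 to 1.11). Cbr1, a cytosolic carbonyl reductase of quinones, prostaglandins and ketone drugs, had 114 CPM (107 to 122) and 109.7 CPM (97.6 to 123), a ratio of 0.960 (0.839 to 1.10). As far as counting error goes, these bounds hold any difference in either gene to within about 1.2-fold.

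By size, 1 of the 7 genes was at least 1.5-fold higher in the aged Leydig-like cells (Aldh3a1) and 1 at least 1.5-fold lower (Ephx1). Among the 15220 genes in both tables with 10 or more counts, 10.9% were at least 1.5-fold higher and 13.5% at least 1.5-fold lower, and 1 of 7 in each direction is near these shares. At 2-fold 1 of 7 was higher (Aldh3a1) and 0 were lower, beside 4.62% and 6.67% of the same genes. All 7 genes also have 50 or more counts, and among the 10998 such genes 6.72% were 1.5-fold higher and 7.98% lower, and 2.0% were 2-fold higher and 2.55% lower. The threshold falls between Ephx1 and Ces1d, at 1.52-fold and 1.46-fold lower. All but Ephx2 are among the 3312 genes at 50 CPM or more in either library, of which 2.48% had a lower ratio than Ephx1, 3.26% a lower ratio than Ces1d and 1.39% a higher ratio than Aldh3a1. The median log2 ratio was -0.14 over the 7 genes and -0.02 over all genes. Together the 7 genes made up 0.957% of all counts in young and 0.772% in aged Leydig-like cells.

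Levels of different genes are set against each other per kilobase of exonic length, with the caution that beads which bind poly-adenylated ends may not give counts in proportion to length. On this scale Ephx1 led in the young library, with 1970 CPM per kilobase (CPM divided by length), followed by Aldh2 with 737 and Ces1d with 613. Aldh3a1 with 122, Nqo1 with 61.6, Cbr1 with 44.7 and Ephx2 with 18.5 CPM per kilobase came after them. In the aged library the order of the 7 was the same, with Ephx1 at 1293, Aldh2 at 670.4, Ces1d at 421 and Aldh3a1 at 271 CPM per kilobase. The 3 scarcest genes were at 59.3 (Nqo1), 42.9 (Cbr1) and 15.7 (Ephx2). This order depends on the division by length. In CPM alone, Aldh2 (3436 CPM) stood above Ephx1 (2522 CPM) in the aged library, and Cbr1 stood above Nqo1 in both libraries.

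**Figure D1:**
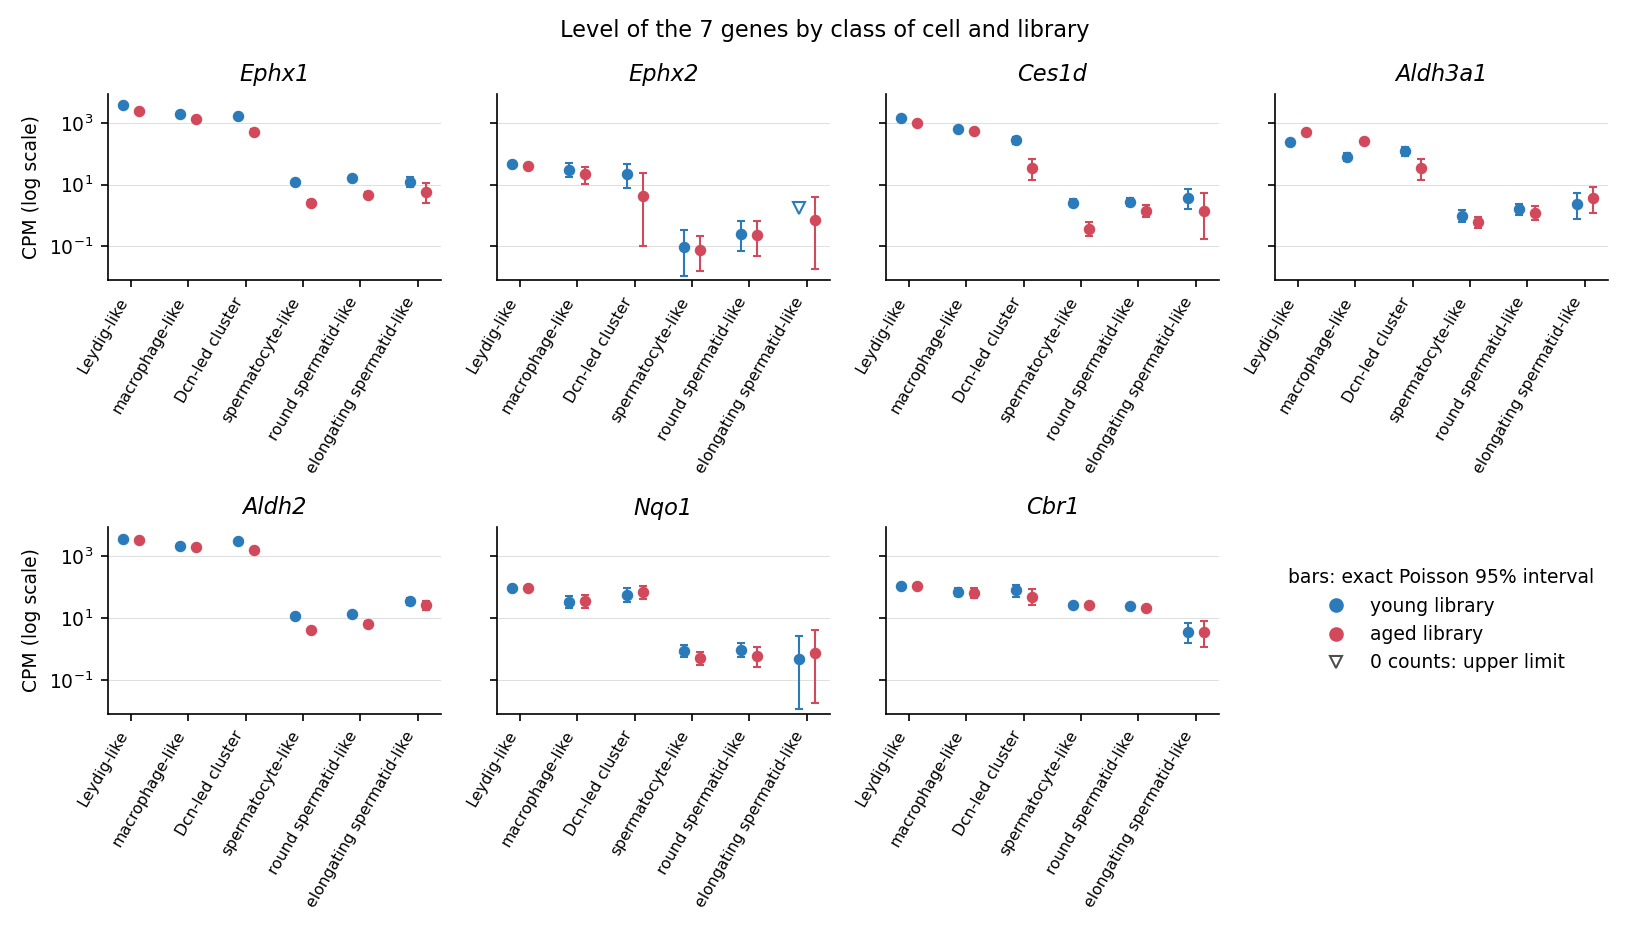
Level of each of the 7 genes (CPM, log axis) in 5 named classes and in an unnamed cluster led by Dcn, with young and aged libraries as separate points and exact Poisson 95% intervals as bars; the open triangle is the upper limit for 0 counts. All but Cbr1 drop by a factor of over 100 from Leydig-like cells to spermatocyte-like cells in the aged library, while Cbr1 stays at 27.1 CPM there.

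Leydig-like cells fell into 2 clusters, each filled mainly from 1 library. Cluster 1, led by the kallikrein genes Klk1b27, Klk1b21 and Klk1b24, held 959 young and 20 aged cells, and cluster 3, led by Fetub, Ly6d and Cxcl10, held 102 young and 546 aged cells. Aldh3a1 is itself among the 10 leading genes of cluster 3, and Ephx1, Ces1d and Aldh3a1 were among the variable genes on which cells were clustered, so values by cluster are a description. In cluster 1, Aldh3a1 had 212 CPM in young cells and 942 CPM in the 20 aged cells (79 counts), a ratio of 4.44 (3.5 to 5.57). In cluster 3 it had 480 CPM in young and 512 CPM in aged cells, a ratio of 1.07 (0.946 to 1.21). Within cluster 3, then, the interval of the Aldh3a1 ratio includes 1.

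Clustering without the 7 genes gave again 1 cluster mostly of young cells (997 young, 32 aged) and 1 mostly of aged cells (62 young, 535 aged). In these, Aldh3a1 went from 233 to 761 CPM, a ratio of 3.27 (2.67 to 3.98), and from 298.9 to 513 CPM, a ratio of 1.72 (1.43 to 2.08). After the same thinning, 22.6% of young and 25.8% of aged cells of the mostly young cluster had an Aldh3a1 count. Of its 31 thinned aged cells, 3 had 5 or more, and the interval of its ratio does not cover such spread between cells. The Aldh3a1 ratio was above 1 in both clusters when the gene took no part in forming them. Ratios within each of these clusters, and within cluster 1, were added after seeing the data.

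Ephx1 was lower in the aged cells of each cluster. Its ratio was 0.815 (0.719 to 0.921) in cluster 1 and 0.633 (0.605 to 0.662) in cluster 3, and 0.779 and 0.607 in the 2 clusters formed without the 7 genes. Ces1d had a ratio of 0.899 (0.740 to 1.08) in cluster 1 and 0.871 (0.804 to 0.945) in cluster 3, both nearer to 1 than the 0.686 of all Leydig-like cells together. The young cells of cluster 1 had 1484 CPM of Ces1d and those of cluster 3 had 1131 CPM, so the clusters differed within the young library too. Aldh2 kept to 0.867 (0.767 to 0.976) and 0.910 (0.872 to 0.951). For Ephx2, Nqo1 and Cbr1 cluster 1 held only 2, 11 and 11 aged counts, and in cluster 3 the intervals of their ratios all include 1.

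**Figure D2:**
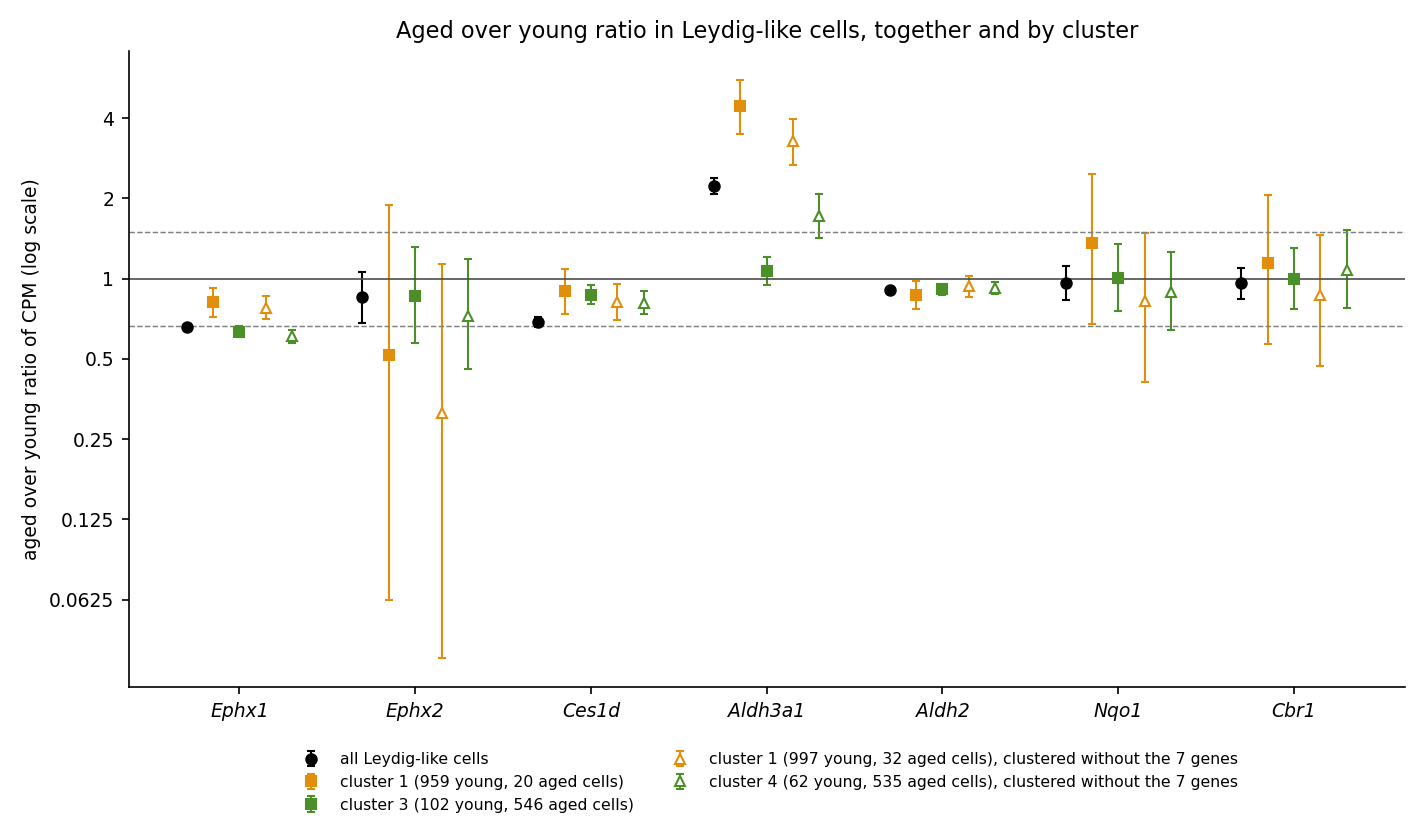
Aged over young ratio of CPM (log axis) for each gene in all Leydig-like cells (black), in clusters 1 and 3 (squares) and in the 2 clusters formed without the 7 genes (triangles), with exact 95% intervals; dashed lines mark 1.5-fold. Aldh3a1 lies above 1.5-fold in all but cluster 3, where its ratio is 1.07, and Ephx1 lies below 1 in every set.

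Outside Leydig-like cells the 7 genes were highest in 2 somatic groups that also carried Leydig transcripts. Macrophage-like cells (84 young, 129 aged), led by Ccl8, Cbr2 and Pf4, had all 9 macrophage markers, summing to 20109 and 16574 CPM. They also had all 12 Leydig markers, with sums of 14972 CPM (young) and 9492 CPM (aged), which is 54.5% and 47.4% of the Leydig-like level. Single markers ranged from 41.4% (Hsd3b6) to 92.0% (Hsd3b1) in the young and from 28.4% (Lhcgr) to 65.6% (Klk1b21) in the aged cells. Ephx1 stood at 1941 CPM (50.5% of its Leydig-like level) and 1311 CPM (52.0%), Ces1d at 649.8 (44.7%) and 561 CPM (56.4%), and Aldh2 at 2106 (55.7%) and 2060.0 CPM (59.9%). Aldh3a1 stood at 78.9 and 252 CPM, a ratio of 3.20 (2.27 to 4.58), which has the direction seen in Leydig-like cells. The 7 genes thus stood between 33.4% and 67.1% in these cells, and the Leydig markers between 28.4% and 92.0%. What part of these levels comes from Leydig RNA was not tested.

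Cells within the macrophage-like class were uneven. After thinning every cell to 2000 counts, 32 of 84 young and 34 of 90 aged macrophage-like cells had no Ephx1 count, and 37 and 36 had no count of Cyp17a1, the steroid 17-alpha-hydroxylase of Leydig cells. Aldh2 was more even, with no count in 6 of 84 young and 8 of 90 aged cells. In a further group of 89 young cells led by Slc13a3, Fcrls and Ccl3 (cluster 17, unnamed, with all 9 macrophage markers at 12387 CPM in sum), Leydig markers were at 196 CPM. There Aldh2 stood at 473 CPM (415 to 538), 12.5% of its Leydig-like level, and Cbr1 at 22.0 CPM (10.97 to 39.3), 19.2%. Ephx1 stood at 19.98 CPM (0.520%), Ces1d and Aldh3a1 had 2 and 1 counts, and Ephx2 and Nqo1 had 0. The Leydig markers summed to 0.712% of their Leydig-like level in these cells, with Fdx1 highest at 3.38%, so Aldh2 and Cbr1 lay above every one of them. The aged library has no cell of this cluster.

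An unnamed cluster led by Dcn, Adamts5 and Cyp26b1 (cluster 14, 43 young and 141 aged cells) had all 8 stromal fibroblast markers, at 9322 and 22208 CPM, and 5 of 7 and 6 of 7 peritubular myoid markers. Leydig markers stood at 63.7% of their Leydig-like level in its young and at 16.1% in its aged cells. In the young cells single markers ranged from 16.3% (Klk1b21) to 103% (Fdx1). The 7 genes are described here for the aged cells only, so the comparison with the markers rests on 1 library. In the aged cells Nqo1 stood at 71.2 CPM (41.5 to 114, 17 counts), 77.3% of its Leydig-like level, Aldh2 at 1637 CPM (47.6%) and Cbr1 at 50.2 CPM (26.0 to 87.8, 12 counts), 45.8%. These 3 values lie above the highest of the 12 Leydig markers, Star with 41.7%, although the interval of Cbr1 reaches below it. Ces1d, at 33.5 CPM (14.5 to 66.0, 8 counts) or 3.36%, lies below the lowest of them, Hsd3b1 with 5.25%, and its interval reaches above that. Ephx1 at 20.8%, Ephx2 at 10.7% (1 count) and Aldh3a1 at 6.38% lay within the range of the markers.

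**Figure D3:**
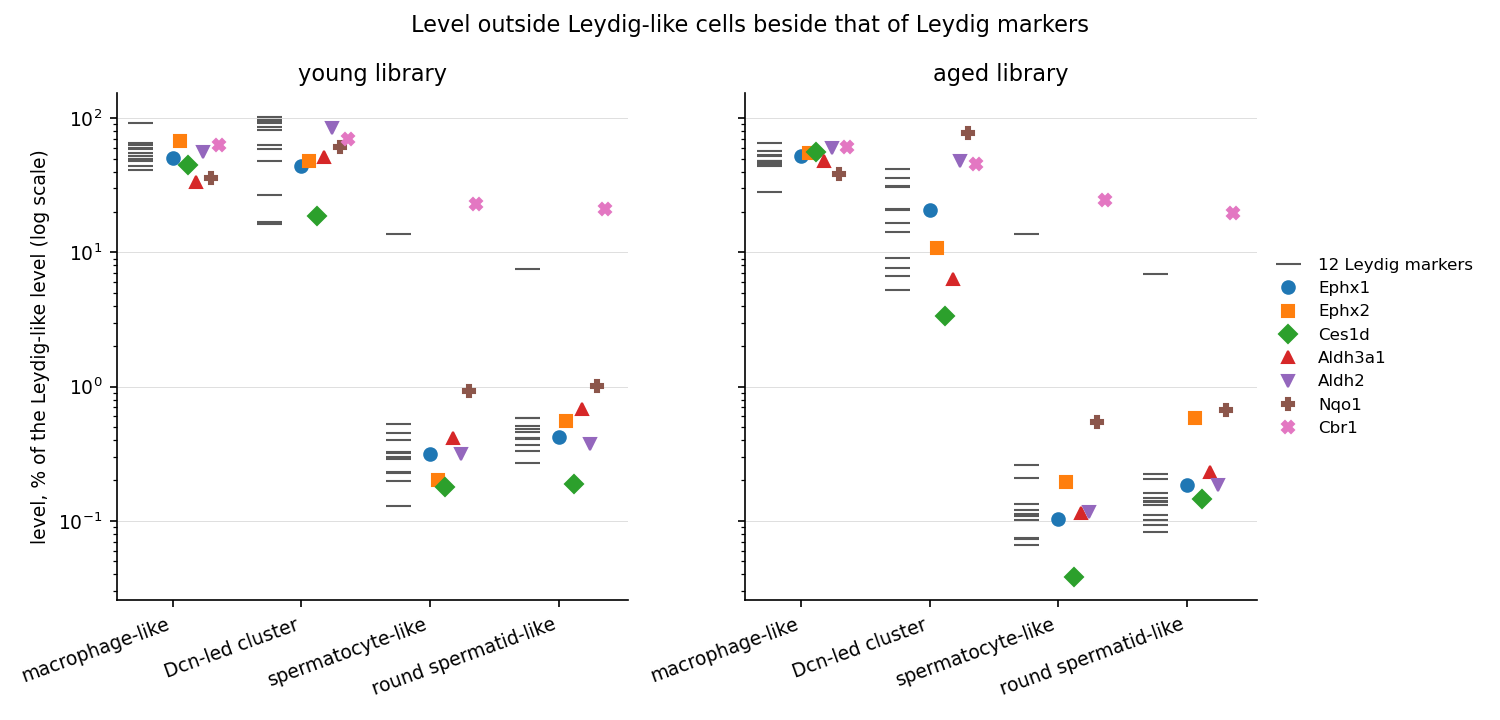
Level of the 7 genes as a percent of their Leydig-like level (log axis) in 4 groups of cells, with each of 12 Leydig markers as a grey dash, young library left and aged right. Cbr1 lies at about 20 to 25% in spermatocyte-like and round spermatid-like cells, above all Leydig markers, and the other 6 genes lie at 1.01% or less there.

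Germ cells, which fill the tubules, divided the set. In spermatocyte-like cells (660 young, 2278 aged), the germ cells in meiosis, Cbr1 stood at 26.2 CPM (24.1 to 28.4) in young and 27.1 CPM (25.5 to 28.8) in aged cells, 22.9% and 24.7% of its Leydig-like level. Round spermatid-like cells had 24.0 CPM (21.7 to 26.6) and 21.5 CPM (19.0 to 24.2) of Cbr1, and elongating spermatid-like cells 3.67 and 3.59 CPM. The levels in spermatocyte-like and round spermatid-like cells overlap in the young library and lie apart in the aged one. An unnamed cluster led by Gm7361, Dzank1 and Gm3453 (70 young, 166 aged cells) had more, 52.5 CPM (43.0 to 63.6) and 49.4 CPM (40.6 to 59.5) of Cbr1. The 12 Leydig markers had a median of 0.311% and 0.112% of their Leydig-like level in spermatocyte-like cells, with Fdx1 highest at 13.8% in each library. Per kilobase, Cbr1 stood at 10.3 and Ephx1 at 6.21 CPM in the young spermatocyte-like cells.

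The other 6 genes were scarce in germ cells. In young spermatocyte-like cells Ephx1 had 12.1 CPM (0.315% of its Leydig-like level), Aldh2 11.8 CPM (0.313%), Ces1d 2.61 CPM (0.18%), Aldh3a1 0.979 CPM (0.415%), Nqo1 0.885 CPM (0.926%) and Ephx2 0.0932 CPM (0.203%). In aged spermatocyte-like cells the same genes had between 0.0379% (Ces1d) and 0.546% (Nqo1) of the Leydig-like level. Leaving Fdx1 out, the Leydig markers lay between 0.129% and 0.530% in young and between 0.0658% and 0.259% in aged spermatocyte-like cells, so Nqo1 lay above them in both libraries and Ces1d below them in the aged one. Ephx1 was 4.63-fold and Ces1d 6.91-fold lower in aged than in young spermatocyte-like cells, while the median Leydig marker share went from 0.311% to 0.112% and Leydig-like cells from 38.8% to 9.95% of the library. The part of free RNA in these differences was not tested. Aldh2 in elongating spermatid-like cells stood somewhat higher, at 34.9 CPM (27.5 to 43.7, young) and 26.5 CPM (18.7 to 36.6, aged), above its level in spermatocyte-like and round spermatid-like cells of the same library.

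The paralogs of these genes did not all share the pattern of their relative. Cbr3, unlike Cbr1, went from 137 and 128 CPM in Leydig-like cells to a level near 0 in germ cells and stood at 0.466 and 0.151 CPM in spermatocyte-like cells. Aldh3a2, the microsomal fatty aldehyde dehydrogenase beside Aldh3a1, had 77.3 and 73.5 CPM in Leydig-like cells and 29.6 and 22.1 CPM in spermatocyte-like cells, so the drop was smaller than that of Aldh3a1. Nqo2 had 105 and 86.6 CPM in Leydig-like cells and 239.8 and 219.6 CPM in elongating spermatid-like cells. Per kilobase that is 59.3 and 54.3 CPM, against 0.296 and 0.462 CPM per kilobase of Nqo1, from 1 count in each library. Nqo2 overlaps Serpinb6a on the opposite strand. Aldh1b1, a mitochondrial relative of Aldh2, had 227 and 298 CPM in Leydig-like cells, a ratio of 1.31 (1.21 to 1.43). In spermatocyte-like cells Aldh1b1 stood at 0.466 and 0.176 CPM, a drop as seen for Aldh2. Of the other Ces1 genes, Ces1a, Ces1c, Ces1e, Ces1f, Ces1g and Ces1h, none had more than 5 counts in the Leydig-like cells of a library.

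Within Leydig-like cells the genes also differed in how evenly single cells carried them. Cells were thinned to 2000 counts, which leaves out 51 aged and 0 young cells. Ephx1 was then seen in 99.5% of the young cells and in 97.9% of the aged ones (1061 of 1061 cells and 97.5% before thinning), with a median of 7 and 5 counts per cell. Aldh2 had a count in 99.8% and 98.8% (1061 of 1061 cells and 99.3% before thinning), with a median of 7 in both. Ces1d had a count in 91.3% (89.5 to 93.0) and 81.7% (78.1 to 85.0), against 99.5% and 92.9% before thinning. The same share in spermatocyte-like cells, with a median of 30664.5 and 17087 counts before thinning, was 2.12% and 0.492% for Ephx1 and 0.606% and 0.0448% for Ces1d.

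The scarcer genes were seen in fewer cells. Nqo1 was seen in 18.0% (15.7 to 20.4) of the young thinned cells and 16.1% (13.0 to 19.6) of the aged, Cbr1 in 19.8% and 19.8%, and Ephx2 in 8.39% and 8.16%. Before thinning the young shares were 45.6%, 52.6% and 27.0% and the aged shares 34.1%, 39.9% and 16.1%. At equal depth the intervals of the libraries overlap for each of these 3 genes. In spermatocyte-like cells Nqo1 was seen before thinning in 18 of 660 young (2.73%) and 20 of 2278 aged cells (0.878%), Ephx2 in 2 and 3 cells, and Cbr1 in 54.8% and 36.6%. Thinned to 2000 counts, Nqo1 and Ephx2 were seen in 0 of 660 and 0 of 2234 cells, and Cbr1 in 5.45% and 4.74%. At that depth the intervals of Nqo1 and Ephx2 allow shares of up to 0.557% and 0.165%.

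Few cells carried Aldh3a1 at a high level. It was seen in 22.4% (19.95 to 25.1) of the young thinned cells and in 35.3% (31.2 to 39.6) of the aged, against 44.6% and 283 of 566 cells before thinning. Cells with 5 or more of their 2000 counts from Aldh3a1 were 23 of 1061 (2.17%, 1.38 to 3.24) in the young and 29 of 515 (5.63%, 3.80 to 7.99) in the aged library, and the highest cells had 18 and 28. The variance of the thinned counts over their mean was 4.02 (young) and 7.22 (aged) for Aldh3a1, and between 1.001 and 1.66 for the other 6 genes in either library, where pure counting noise gives a value near 1. Of the 1558 young and 1596 aged genes with a mean of 0.2 or more thinned counts, 13 and 4 had a higher value than Aldh3a1. Over all Leydig-like cells, both more cells with a count and more cells with many counts accompanied the higher aged level. In cluster 3, which Aldh3a1 helped to form, 8 of 102 young (7.84%) and 27 of 495 aged cells (5.45%) had 5 or more. There 33.3% and 35.8% had a count. In cluster 1 (20 aged cells) and both clusters formed without the 7 genes, the 2 shares were higher in aged cells. In the mostly aged cluster formed without them, 2 of 62 young (3.23%) and 26 of 485 aged cells (5.36%) had 5 or more. There 21.0% and 36.1% had a count.

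Cells with and without Aldh3a1 had similar means of the 3 most abundant genes per length. Young cells with a thinned Aldh3a1 count (238) had a mean of 7.70 Ephx1, 2.87 Ces1d and 7.52 Aldh2 counts, and the remaining young cells 7.62, 2.93 and 7.62. In the aged library the 182 cells with Aldh3a1 had 5.10, 2.10 and 6.70, and the remaining cells 5.18, 2.05 and 6.85. Nqo1 had a count in 20.6% of young cells with Aldh3a1 and 17.3% of those without, and in 18.7% and 14.7% of the aged cells. Counting the genes per thinned cell, 48.7% (young) and 50.3% (aged) of Leydig-like cells showed 4 or more of the 7, and 1 young and 0 aged cells showed all 7.

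**Figure D4:**
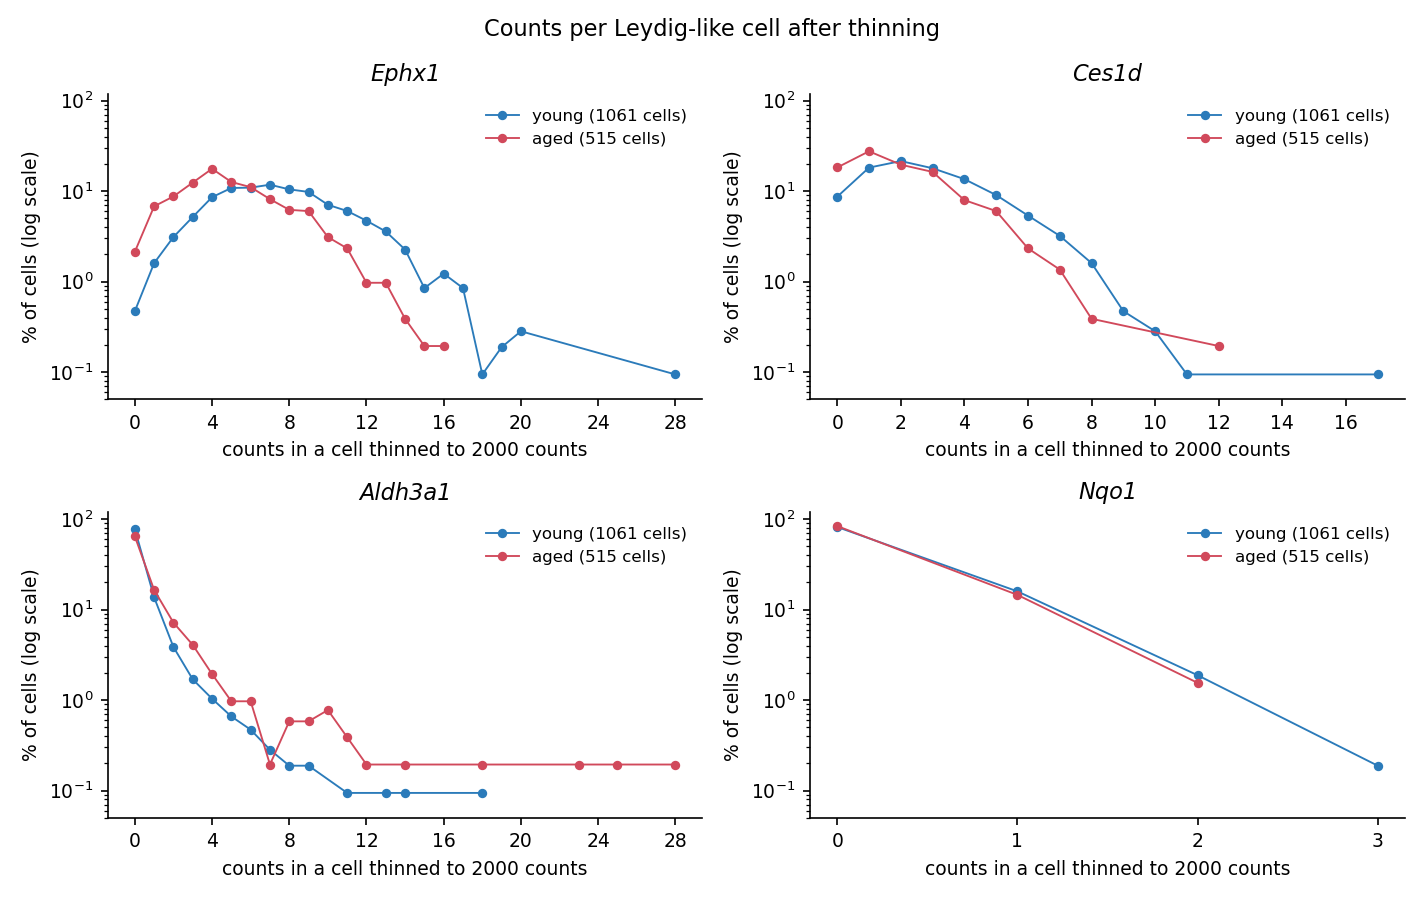
Percent of Leydig-like cells (log axis) with each number of counts of Ephx1, Ces1d, Aldh3a1 and Nqo1 after thinning each cell to 2000 counts, for 1061 young and 515 aged cells. The aged curve lies to the left of the young one for Ephx1 and Ces1d, the Aldh3a1 curves run out to 18 (young) and 28 (aged) counts, and the Nqo1 curves nearly coincide.

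Other genes of the same pathways were read from lists, by the same rule of size (10 or more counts, 1.5-fold) and beside the same background of 10.9% higher and 13.5% lower. Of 25 measured genes of the Nrf2 list, 7 were higher in the aged Leydig-like cells and 1 lower, with a median log2 ratio of 0.22. The higher ones were the small Maf proteins that pair with Nrf2, Maff (9.20 to 33.3 CPM, 3.62-fold), Mafk (11.01 to 19.7 CPM, 1.79-fold) and Mafg, the repressor Bach1, and Hmox1, Gsr and Txnrd1, which degrade haem and reduce glutathione and thioredoxin. The lower one was Ephx1, and Nqo1, the other gene of the set in this list, had a ratio of 0.964. Me1, malic enzyme, had 3608 and 4299 CPM, a ratio of 1.19. Nfe2l2 itself had 70.7 and 87.0 CPM, a ratio of 1.23 (1.05 to 1.44). The median of the list was 0.14 in cluster 3 alone and 0.099 in cluster 1 alone, whose aged part is 20 cells.

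Of 9 measured genes of the aryl hydrocarbon receptor list, 3 were higher and 0 lower, with a median log2 ratio of 0.16. They were Aldh3a1, Tiparp (65.2 to 118 CPM, 1.81-fold), a feedback inhibitor of the receptor, and Arnt, its partner (30.96 to 51.9 CPM, 1.68-fold). Ahr itself had 1 count in the young and 8 in the aged Leydig-like cells, and Cyp1b1, a target, had 21 and 8 counts, a ratio of 1.08 (0.412 to 2.53). Of 4 measured xenobiotic receptors none passed 1.5-fold in either direction. Rxra had 57.0 and 57.8 CPM and Ppara 18.5 and 17.5 CPM, while Nr1h4 and Nr1h3 had ratios of 1.29 and 1.04, and the median log2 ratio of the list was 0.047.

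The enzyme families of the 7 genes showed few differences of that size. Of 19 measured aldehyde dehydrogenases (median log2 ratio 0.021) 1 was higher (Aldh3a1) and 2 lower: Aldh1a2, which makes retinoic acid (157 to 98.7 CPM, 1.59-fold lower), and Aldh3b2, with 27 and 4 counts. Aldh1a1, a retinal dehydrogenase, had 9289 and 11218 CPM, a ratio of 1.21 (1.19 to 1.22). Of 22 measured carbonyl and aldo-keto reductases (median -0.089) 3 were higher (Dcxr, Akr1c13 and Akr1c12) and 2 lower (Dhrs11 and Cbr2). Cbr2 is also a leading gene of the macrophage-like cells, and what part of its counts here is macrophage RNA was not tested. Dcxr, dicarbonyl and xylulose reductase, went from 65.9 to 110.0 CPM (1.67-fold), while Akr1cl, with 2735 and 2251 CPM, and Akr1b3, aldose reductase, with 683 and 564 CPM, had ratios of 0.823 and 0.827. None of 7 quinone and enone reductases (median 0.0016) passed 1.5-fold, among them Cryz with a ratio of 1.21, Ptgr1 with 1.12 and Nqo2 with 0.822. Of 3 measured epoxide hydrolases (median -0.23) 1 was lower (Ephx1), and of 3 measured carboxylesterases (median -0.23) 1 was higher (Ces2g, 12 and 23 counts), while esterase D (Esd) had a ratio of 0.852. Of 4 measured alcohol dehydrogenases (median -0.12) 1 was lower (Adh7, 11 and 0 counts), and Adh1, Adh5 and Adhfe1 had ratios of 1.39, 0.961 and 0.875. Of 12 measured conjugating enzymes (median -0.32) 1 was higher (Nnmt, 1.85-fold) and 1 lower (Inmt, 71 and 16 counts), and estrogen sulfotransferase Sult1e1 went from 578 to 839 CPM, a ratio of 1.45 (1.38 to 1.53).

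**Figure D5:**
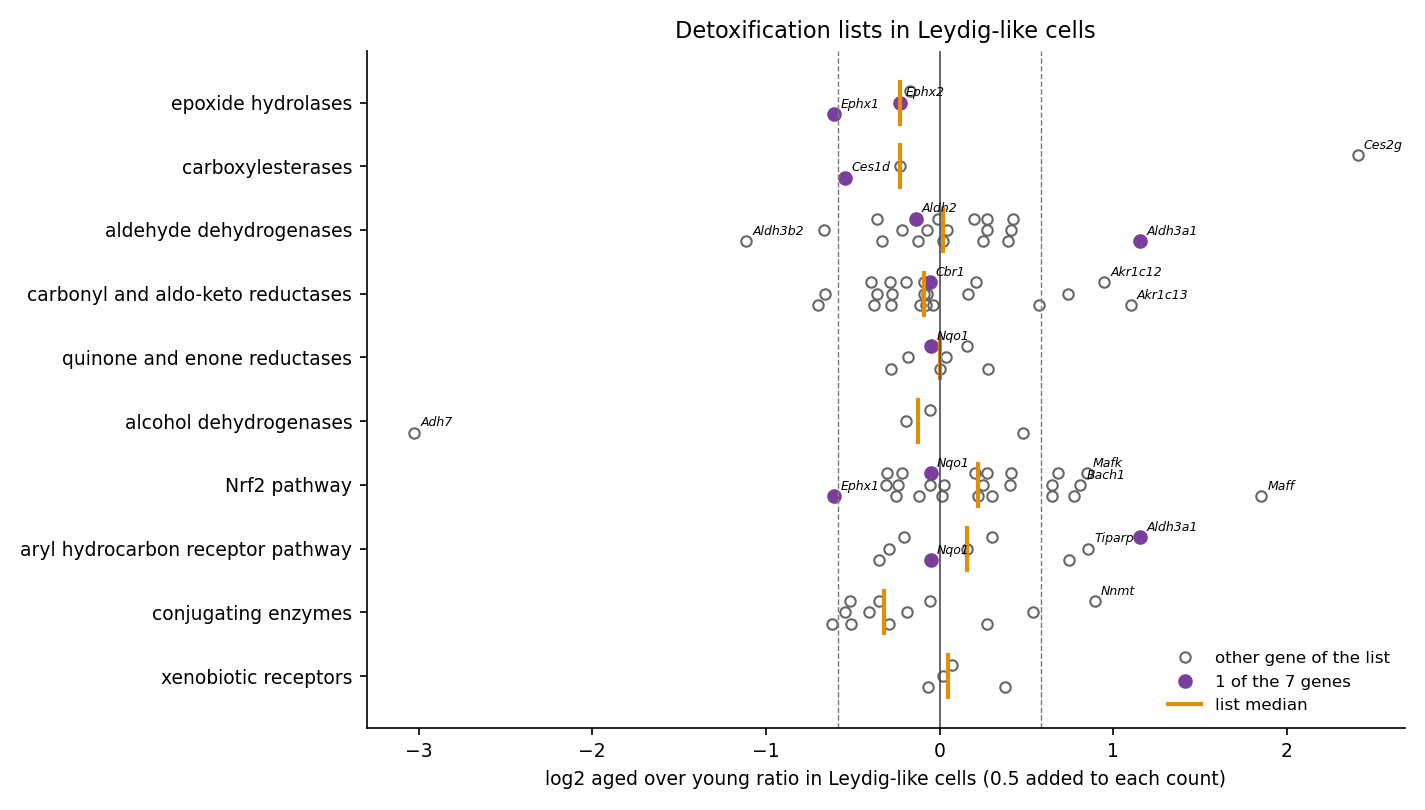
Log2 aged over young ratio in Leydig-like cells of every gene with 10 or more counts in 10 detoxification lists, the 7 genes filled, list medians as bars and 1.5-fold as dashed lines. Aldh3a1 lies outside the dashed lines to the right and Ephx1 just outside to the left, with Nqo1, Cbr1 and Aldh2 near 0.

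Over the 10 sums of a named class in a library, the genes most like each of the 7 were found by Pearson's r of log2(CPM + 1) among 3311 others at 50 CPM or more in Leydig-like cells. Points share their library and its depth, and most of the pattern is the step from Leydig-like and macrophage-like to germ cells, so r is a description. Ephx1 was most like Hsd3b6, Akr1cl and Lcn2, Ces1d most like Gadd45g, Gsta3 and Hsd17b3, and Ephx2 most like C1s1, Copz2 and Nat8f5, with r of 0.998 to 0.999. Aldh2 was most like Rbbp7, Cd81 and Txn1, and Nqo1 most like Efemp2, Smpdl3b and Acss3. Aldh3a1 was most like Snhg11 (r = 0.998), Col6a1 and Irf2bpl (each 0.996). Cbr1, present in germ cells, was most like Rps27l, Sdhb and Psmb4, with r of 0.994 to 0.997. Hsd3b6 and Hsd17b3, among the closest to Ephx1 and Ces1d, are steroid-making enzymes from the list of Leydig markers.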

How the data were processed

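The authors deposited 1 table for each library, holding raw whole-number counts of genes in single cells. Per the file headers, the aged table came from version 1.7.1 of the BD Rhapsody pipeline with STAR 2.5.2b, while Cell Ranger 2.11 and mm10 (GRCm38) are named for both per the submitters' processing notes. The sources differ, and cell calling and the meaning of a count (read or molecule) are not given in them. The young file held 2771 cells and 53413783 counts, and the aged file 6823 cells and 66390904 counts. Genes missing from 1 of the files were given 0 in it.

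The filter on cells asked for at least 500 counts and 200 genes and no more than 25% of counts from the mitochondrial genome (2770 young and 5812 aged passed), and 38 young and 121 aged doublets called by Scrublet (scanpy 1.11.5) were removed. Cells of both libraries were clustered together (2000 variable genes, 40 components, 15 neighbours, leidenalg 0.10.2, resolution 1) without batch correction, and clusters were named from marker lists. Unnamed clusters hold 10.4% of young and 28.3% of aged cells. Counts were summed per class and library. Levels carry exact Poisson, ratios exact conditional binomial and shares Clopper-Pearson 95% intervals, and 0.5 was added to each count for log2 ratios. In simulated counts at the depths of the Leydig-like cells, 95.7% of intervals for 6557 genes held the true ratio. These counts were drawn from the Poisson model that the intervals assume, so the simulation checks only the calculation. Spread between cells beyond counting noise, as seen for Aldh3a1, was not simulated.

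The 7 genes, the lists and the alternatives were chosen with earlier results of these data known. From lists, the text names the 2 most abundant genes and the 2 furthest from equality at 50 or more counts, of which 1 is not reported here; Mafg, Bach1, Hmox1, Gsr, Txnrd1, Arnt, Nfe2l2, Ahr, Cyp1b1, Akr1c12, Dhrs11, Cbr2, Ces2g, Aldh3b2 and Adh7 were added after their values had been seen, and so were the variance over the mean and the share of cells with 5 or more counts. Alternatives to the cell filter, doublet removal, resolution, naming, depth, scaling, free RNA, averaging, lowest total, cluster and threshold were run 1 at a time, except that single clusters of the clustering without the 7 genes change both choices together.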

Additional observations from a re-analysis of the deposited data

How the results depend on the processing

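Values here are log2 aged over young ratios in Leydig-like cells, -0.61 for Ephx1, -0.54 for Ces1d, -0.23 for Ephx2, 1.15 for Aldh3a1, -0.14 for Aldh2, -0.051 for Nqo1 and -0.057 for Cbr1. Over 16 alternatives (3 of them added after seeing the data) Ephx1 stayed below 0 in 16 and past 1.5-fold in 13, and Aldh3a1 above 0 in 16 and past 1.5-fold in 15. Ephx1 lies so near the threshold that thinning to 2000 counts (-0.57) left 0 genes at least 1.5-fold lower. In cluster 1 alone Ephx1 was at -0.29, Ephx2 at -0.63, Ces1d at -0.15, Aldh3a1 at 2.16, Aldh2 at -0.20, Nqo1 at 0.51 and Cbr1 at 0.26; the gene then 1.5-fold lower is Ephx2, with 2 aged counts. In cluster 3 alone Ephx1 was at -0.66, Ces1d at -0.20 and Aldh3a1 at 0.092, which left 0 genes higher. With the 7 genes left out of the clustering, cluster 1 alone gave -0.36 for Ephx1, -1.36 for Ephx2, -0.28 for Ces1d, 1.72 for Aldh3a1 and -0.093 for Aldh2, and cluster 4 alone -0.72 for Ephx1, -0.30 for Ces1d and 0.77 for Aldh3a1. With doublets kept Ephx1 was at -0.65 and Aldh2 at -0.18, with free RNA subtracted Aldh2 was at -0.17, and at resolution 2 Aldh3a1 was at 1.56. A threshold of 2-fold left 0 genes lower. Of all genes, 10.9% were 1.5-fold higher, and this share was 16.5% with free RNA subtracted, 21.0% at 1 or more counts and 42.2% and 34.0% in the clusters 1 alone. For these shifts the cause was not tested. No paired analysis was possible because each age has 1 library. The libraries differ in depth and in their lowest cell total, and how many mice stand behind each is not given, so age, animal and library cannot be told apart.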
